A study of Mus musculus with 8 samples.

Results

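The Foxp genes encode a branch of the forkhead family of transcription factors, and 3 of them, Foxp1, Foxp2 and Foxp4, are described here in the lateral ganglionic eminence (LGE) of mouse embryos with a conditional deletion of Meis2. They were taken by symbol from a table of 16913 genes, and Foxp3 is not analysed here. The LGE is the part of the embryonic ventral forebrain that gives rise to the projection neurons of the striatum. It was dissected at embryonic day 14.5 from animals on a mixed background of C57BL/6J and CD1, with 4 samples per genotype. The control (Ctrl) littermates had the genotype Dlx5/6-Cre;Meis2F/+, with 1 floxed Meis2 allele, and the conditional knockouts (Meis2-CKO) had the genotype Dlx5/6-Cre;Meis2F/F, with both alleles floxed. Every sample therefore carried the Cre driver, and the controls were not wild type. The driver is active in Dlx-expressing cells of the ventral forebrain, so cells of other lineages in the dissection keep Meis2.

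Foxp proteins bind DNA through a forkhead domain near their carboxyl end. A zinc finger and leucine zipper ahead of it allow Foxp1, Foxp2 and Foxp4 to pair with themselves and with each other, and in many settings the pairs repress transcription with the help of corepressors such as the CtBP proteins. Foxp1 is widely used as a marker of striatal projection neurons. Foxp2 is present in subsets of those neurons and is known for its link to speech and vocal learning, and Foxp4 is found more broadly in the developing forebrain.

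Each gene is described by the mean expression value the authors gave it in each genotype, by their log2 fold change of Meis2-CKO over Ctrl (the log2 change), and by their p-value with a Benjamini-Hochberg adjustment over all listed genes. A gene is said to be called, or to have fallen or risen, where the adjusted p was under 0.05. The means carry no spread between samples, no value of a single library was used, and depth is unknown, so no error, interval or detection limit accompanies a value. The labels' protocol speaks of brains, 4 in each group, and gives no litters. Most deposited p-values were large (median 0.760, 80.2% of genes over 0.5), and a gene that was not called is not shown to be unchanged.

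The labelled tissue and genotype were checked first. All 12 markers fixed for the LGE were listed above 0, a weak check, since only 304 of 16913 genes had a mean of 0 in either genotype. Their summed means were 1239 in Ctrl and 1226 in Meis2-CKO per the authors' deposited table, although 5 of the 12 were called lower (Isl1, Ebf1, Zfp503, Bcl11b and Meis2). The sums pool 5 genes with a log2 change above 0, such as Dlx1 (393 and 496, not called), and 7 below it, such as Isl1 (57.9 and 12.5). They do not show that LGE content was unchanged. Meis2, the targeted gene, fell according to the authors' deposited table (204 in Ctrl, 140 in Meis2-CKO, log2 change -0.53, adjusted p = 0.00195). That value covers the whole gene, so transcripts without the floxed part may still be counted in it. Sex-linked genes differed too: the authors' deposited table had Kdm5d, Ddx3y and Eif2s3y of the Y chromosome lower in Meis2-CKO, and Xist, not called, at 78.0 in Ctrl against 256. The part of this difference in the Foxp results was not tested.

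How far the genes can be told apart in short reads depends on how alike their transcripts are. In GENCODE M21 the longest coding sequences held 2121 bases in Foxp1, 2220 in Foxp2 and 2058 in Foxp4. Foxp1 and Foxp2 were identical at 70.7% of aligned coding bases, Foxp2 and Foxp4 at 68.3%, and Foxp1 and Foxp4 at 66.7%. The longest unbroken match was 35 bases, between Foxp1 and Foxp2. Of 31-base words, 12 were shared between members, and of 50-base words 0 were shared among all annotated transcripts of the 3 genes. The longest unbroken match of Foxp1 and Foxp4 was 21 bases.

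Foxp1 fell in the Meis2-CKO LGE, and it was the 1 member of the 3 that was called, against 0.780% of all listed genes called in either direction and 0.544% called lower. Foxp1 (ENSMUSG00000030067) lies on the minus strand of chr6:98925338-99522721 (GRCm38). Its mean was 40.2 in Ctrl and 16.1 in Meis2-CKO, and the log2 change per the authors' deposited table was -1.30, or 2.47-fold lower (adjusted p = 5.53e-08). By unadjusted p it stood at place 46 of 16913 genes. Among the 7989 genes with a mean of at least 10 in either genotype, a minimum chosen after the data were seen, 30 genes had a lower log2 fold change than Foxp1, which stood at place 31.

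Foxp4 had the highest deposited mean of the 3 in both genotypes and was not called. Foxp4 (ENSMUSG00000023991) lies on the minus strand of chr17:47867133-47924645 (GRCm38). Its mean was 56.4 in Ctrl and 39.2 in Meis2-CKO according to the authors' deposited table, with a log2 fold change of -0.51. The unadjusted p was 0.000565 and the adjusted p 0.0688, while the largest unadjusted p of any called gene was 0.000372. Foxp4 thus stood close to the threshold, at place 139 by p in the whole table and at place 103 by log2 fold change among the 7989 genes with a mean of at least 10.

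Foxp2 had the lowest deposited mean of the 3 and was not called either. Foxp2 (ENSMUSG00000029563) lies on the plus strand of chr6:14901349-15441977 (GRCm38). Its mean was 19.0 in Ctrl and 12.4 in Meis2-CKO per the authors' deposited table, with a log2 fold change of -0.60, an unadjusted p of 0.0209 and an adjusted p of 1.0. Its log2 fold change took place 72 among the 7989 genes with a mean of at least 10. All 3 members had an unadjusted p under 0.05 and a log2 fold change below 0 in the authors' deposited table, and of all listed genes 1.34% did so. The members were chosen with earlier results of these data known, so this count is not independent evidence of a fall across the family.

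The deposited means ran in the order Foxp4, Foxp1, Foxp2 in both genotypes. The header names no unit, and whether the values are per length is not given; the median Ctrl value was 9.18 in the shortest and 14.2 in the longest of 5 exon-length bins of protein-coding genes. The ratios and sums that follow are therefore of deposited values and not of transcript amounts, and a difference between genes as small as that of Foxp4 and Foxp1 in Ctrl fixes no order of level. In the authors' deposited table Foxp4 stood 1.40-fold above Foxp1 in Ctrl and 2.44-fold above it in Meis2-CKO. Foxp1 stood 2.12-fold above Foxp2 in Ctrl and 1.30-fold above it in Meis2-CKO. The ratio of Foxp4 to Foxp2 was 2.97 in Ctrl and 3.16 in Meis2-CKO. Without a spread between samples, neighbours in this order could not be tested against each other, and whether the log2 fold change of Foxp1 differs from that of Foxp2 or Foxp4 was not tested. The summed mean of the family was 116 in Ctrl and 67.6 in Meis2-CKO, and Foxp1 made up 50.3% of that difference, Foxp4 35.9% and Foxp2 13.7%. Foxp1 held 34.8% of the family sum in Ctrl and 23.8% in Meis2-CKO, and Foxp4 held 48.8% and 57.9%. In whole tissue, fewer cells that express a gene and less RNA per cell cannot be told apart.

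Other forkhead genes give the nearest comparison, because they share the DNA-binding domain and differ in the tissues and stages they serve. GENCODE M21 holds 44 protein-coding forkhead genes by symbol, of which 21 are analysed here. Outside the Foxp group, 0 of 18 were called, and 0 of 18 had an unadjusted p under 0.05. Over all listed genes these shares were 0.780% and 2.17%, so counts of 0 among 18 are near them. The tool behind these p-values is named in no source used here. The log2 fold changes of the 18 ran from -0.26 (Foxo1) to 0.29 (Foxf2). Their median was 0.02, close to the median of 0.01 over all listed genes. For the Foxp genes the range was -1.30 to -0.51 and the median -0.60.

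Foxm1, which drives expression of mitotic genes in dividing cells, stood at 72.6 and 80.1 (log2 change 0.16, unadjusted p = 0.214) per the authors' deposited table. Foxk2 and Foxn3, 2 widely expressed repressors with deposited means in the range of those of the Foxp genes, stood at 30.7 and 31.2, and at 16.4 and 19.0, in Ctrl and Meis2-CKO according to the authors' deposited table. Foxj3, another forkhead gene in that range, stood at 22.3 and 21.6 (log2 change -0.03) per the authors' deposited table. Of the 18 genes, 12 had a log2 fold change above 0 and 6 below it, none of them called. The plot of means per genotype and the plot of fold change against level show the forkhead genes side by side.

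**Figure D1:**
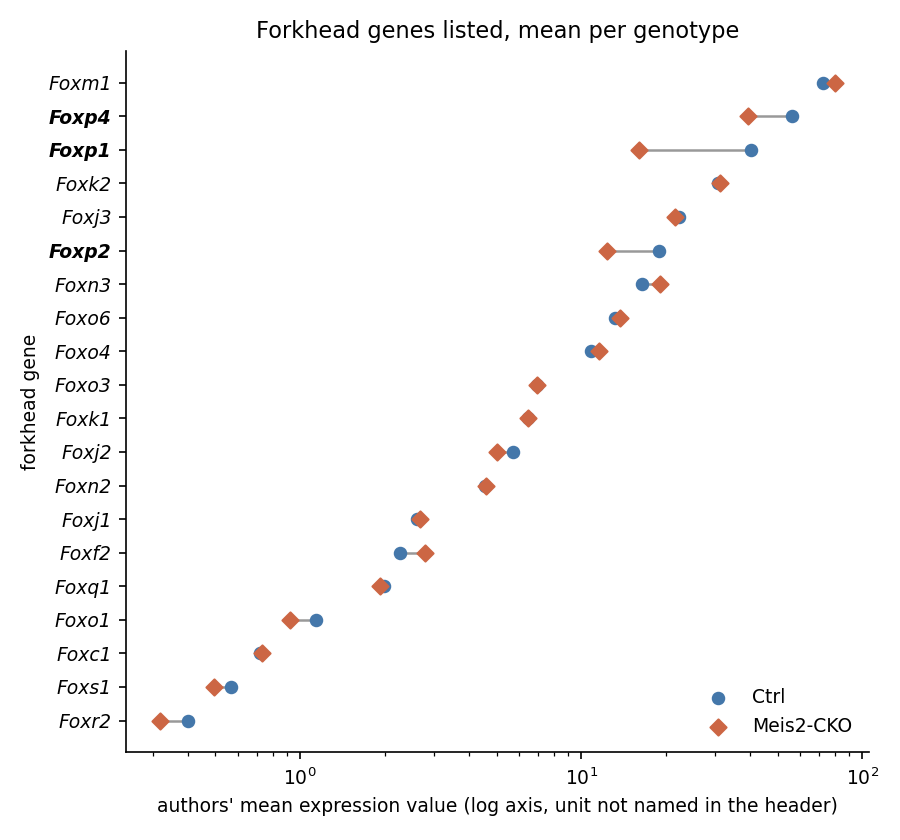
The authors' mean value in Ctrl (circles) and Meis2-CKO (diamonds) on a log axis for 20 of the 21 forkhead genes analysed, ordered by the Ctrl mean, with the Foxp genes in bold and grey lines joining the 2 genotypes. Foxp1 (40.2 and 16.1), Foxp4 (56.4 and 39.2) and Foxp2 (19.0 and 12.4) have the diamond to the left of the circle. Of these, only Foxp1 was called.

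**Figure D2:**
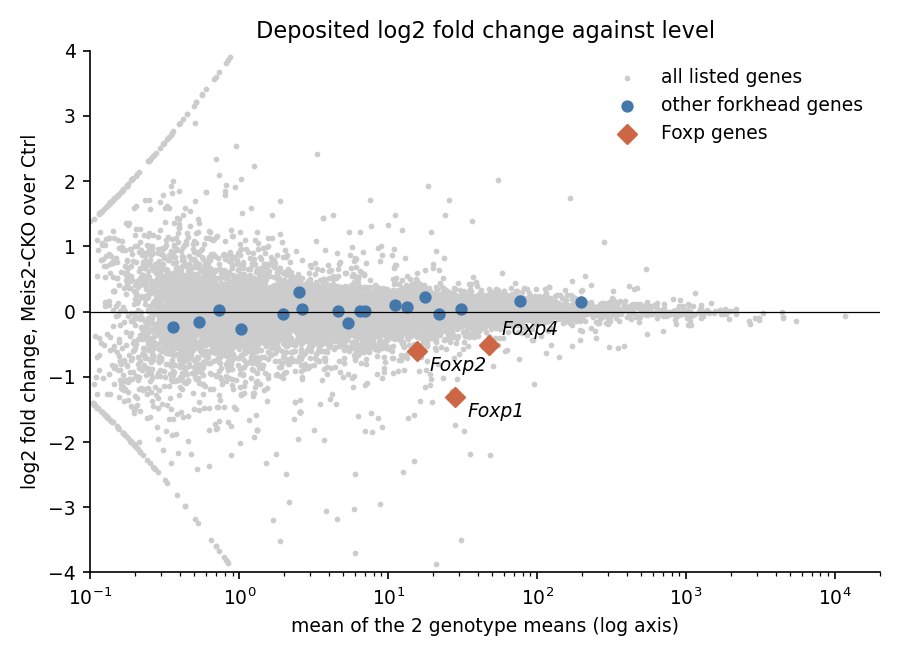
The deposited log2 fold change of Meis2-CKO over Ctrl against the mean of both genotype means (log axis), for all listed genes (grey), the 18 other forkhead genes (circles) and the 3 Foxp genes (diamonds); 158 genes lie outside the axes. The Foxp genes sit at -1.30, -0.60 and -0.51, below 0, and the other forkhead genes lie within -0.26 to 0.29.

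Genes whose products act with Foxp proteins gave no call. The 28 genes of the partner list include the CtBP corepressors, the histone deacetylases Hdac1 and Hdac2, subunits of the NuRD chromatin-remodelling complex, and transcription factors reported to bind Foxp proteins. None of the 28 (0) was called by the authors' adjusted p and 0 had an unadjusted p under 0.05. Over all listed genes these shares were 0.780% and 2.17%, so counts of 0 among 28 are near them and do not by themselves set the partners apart. The median log2 fold change was 0.09, with 24 of 28 above 0 and a range of -0.12 to 0.30; over all listed genes 9021 of 16913 lay above 0. The 3 with the smallest p were Hdac1 (59.6 in Ctrl, 68.7 in Meis2-CKO, log2 change 0.22), Chd4, the remodelling ATPase of NuRD (109 and 123, 0.19), and Ctbp2 (45.4 and 51.3, 0.19), per the authors' deposited table. Ctbp1 stood at 182 and 194 according to the authors' deposited table.

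Genes reported elsewhere as targets of Foxp1, Foxp2 or Foxp4, mostly in other tissues or stages, gave no call. Of 11 fixed, 8 are analysed here. Over all listed genes 0.780% were called and 2.17% had an unadjusted p under 0.05, so a list of 8 can show little. Of the 8, 0 were called and 1 had an unadjusted p under 0.05. That 1 was Cntnap2, a neurexin-related adhesion gene repressed by Foxp2 in human neural cells, with means of 54.7 in Ctrl and 38.4 in Meis2-CKO (log2 change -0.50, unadjusted p = 0.000968, adjusted p = 0.115) per the authors' deposited table. Vldlr, a reelin receptor gene, stood at 13.1 and 15.7 (log2 change 0.27) and Mef2c, an activity-linked transcription factor gene repressed by Foxp2 in the striatum, at 13.9 and 11.5 (log2 change -0.26). Cdh2, the N-cadherin gene repressed by Foxp2 and Foxp4 in neural progenitors, stood at 95.1 and 96.4 according to the authors' deposited table. The list median was 0.06, with 5 of 8 above 0.

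Against other transcription factors of the LGE and striatum, Foxp1 stood with the genes that fell. Of 28 such genes 7 were called, all lower: Rxrg, Rarb, Ebf1, Isl1, Zfp503, Bcl11b and Meis2 itself. Of all listed genes 0.544% were called lower. The list was written with earlier results of these data known, so its count is not independent evidence. When the 28 and the 3 Foxp genes are ordered by log2 fold change, Foxp1 takes place 7 from the lowest. The 6 below it are Rxrg and Rarb, both retinoid receptor genes, Ikzf1, Ebf1 and Isl1, factors of striatal neuron classes, and Zfp503. Its neighbours were Zfp503 (22.5 in Ctrl, 7.35 in Meis2-CKO, log2 change -1.59) and Bcl11b (74.1 and 48.2, -0.61) per the authors' deposited table. Foxp2 and Foxp4 took places 9 and 12, on either side of Six3, a homeobox gene of indirect-pathway neurons (25.5 and 16.7, -0.59, not called), and Meis2 (-0.53). At the other end of the order lay Sp8 (17.3 and 26.8, 0.64) and Sp9 (34.3 and 44.5, 0.39), zinc finger genes of LGE progeny, and before them 3 Dlx homeobox genes, Dlx1 (393 and 496, 0.35), Dlx2 (137 and 171, 0.34) and Dlx5 (72.3 and 92.1, 0.36), while Dlx6 stood at 39.8 and 29.9 (-0.40); none of these was called.

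**Figure D3:**
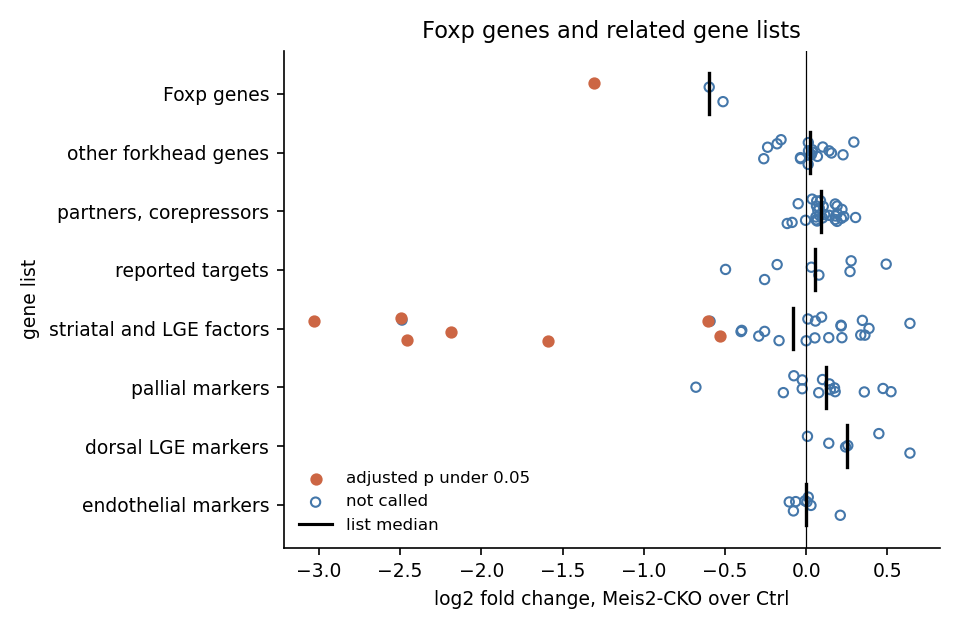
Deposited log2 fold changes of the Foxp genes and of 7 related lists, 1 point per gene (filled where the adjusted p was under 0.05, open otherwise), with the list median as a bar and points spread vertically for visibility. The Foxp genes all lie below 0, the 28 partner genes centre on 0.09, and filled points appear among the Foxp genes (1) and the striatal and LGE factors (7).

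Foxp genes are also expressed outside the striatal lineage, in cortical neurons, in endothelium and in lymphocytes, so markers of those cells were read beside them. The 14 pallial genes summed to 290 in Ctrl and 307 in Meis2-CKO according to the authors' deposited table, with none called, 2 with an unadjusted p under 0.05 and none at 0. Those 2 were Neurog2, a proneural gene (19.2 and 27.4, log2 change 0.52), and Tle4, a corepressor gene of deep-layer cortical neurons (15.6 and 9.59, -0.68). The 8 endothelial genes summed to 54.0 in both genotypes, with log2 fold changes of -0.10 to 0.21, and the 8 microglial genes to 44.2 and 45.6. The 6 genes of the dorsal LGE and amygdala intercalated cells, the latter a Foxp2-expressing type, summed to 139 and 173, all above 0 in log2 fold change; Sp8 stood at 17.3 and 26.8 and Vax1 at 33.0 and 44.7 per the authors' deposited table. The 4 medial eminence genes summed to 104 and 107. The 3 choroid plexus and ciliated-cell genes analysed summed to 10.4 and 10.5, and the 6 lymphocyte genes fixed are not analysed here. None of these lists held a called gene, where 0.780% of all listed genes were called. The 6 meningeal genes were at low levels, summing to 7.51 and 4.93, and the 6 red cell genes summed to 3013 and 3035; their part in the Foxp values was not tested.

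The genes around each Foxp locus were read to see whether a wider stretch of chromosome differed. Of 26 listed genes within 500 kb of the 3 loci, 0 were called, 0 had an unadjusted p under 0.05, and the median log2 fold change was 0.03. Most of the 26 lay at Foxp4 (20 genes, median 0.03), with 5 at Foxp1 (median -0.03) and 1 at Foxp2 (0.13). The pooled median therefore describes mainly the Foxp4 locus. Over all listed genes 0.780% were called and 2.17% had an unadjusted p under 0.05. Counts of 0 among 26 genes are near those shares, so they cannot decide whether a wider stretch differed. Foxp1 has few listed neighbours: on its upstream side the nearest was Eif4e3, a cap-binding protein gene, 102 kb away (4.47 in Ctrl, 4.77 in Meis2-CKO, log2 change 0.10). Gpr27, an orphan receptor gene 170 kb upstream, stood at 11.8 and 7.96 (log2 change -0.54, unadjusted p = 0.0933) according to the authors' deposited table and is named after its value was seen. Within 500 kb downstream of Foxp1 no listed gene lay. A predicted microRNA gene inside Foxp1, AC155839, was listed at 0 in Ctrl and 0.613 in Meis2-CKO and was not called. The annotation also has Gm20696 (protein-coding), Gm20705 (sense intronic) and Gm22328 (microRNA) overlapping Foxp1 on its own strand. They are not analysed here, and whether reads of these overlaps were counted to Foxp1 is not known.

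The genes beside Foxp2 and Foxp4 include a related pair. Mdfic, 279 kb downstream of Foxp2 and its only listed neighbour within 500 kb, stood at 4.28 and 4.65 (log2 change 0.13) per the authors' deposited table. Mdfi, 32.4 kb downstream of Foxp4, stood at 4.21 and 3.5 (log2 change -0.25). These genes encode inhibitors of the MyoD family. On the upstream side the nearest listed gene to Foxp4 was Trem2, a microglial receptor gene 422 kb away (4.79 and 5.06). The annotation holds Gm15556 on the opposite strand within Foxp4, not analysed here, and since strand is not stated for the counting, reads of such a pair cannot be separated.

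**Figure D4:**
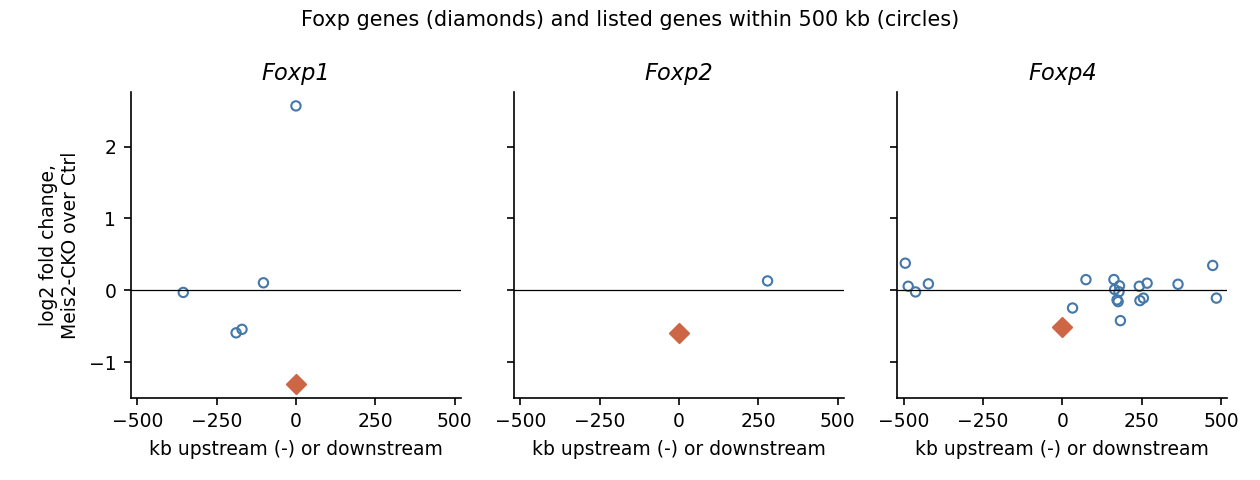
Deposited log2 fold change of each Foxp gene (diamond, placed at 0) and of the listed genes within 500 kb (circles) by distance in kb, negative upstream and positive downstream in the gene's own direction. The neighbours of the 3 loci together have a median of 0.03, and 20 of the 26 lie at Foxp4. The circle at 2.57 is AC155839, listed at 0 in Ctrl.

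Foxp1 and Foxp4 also differ in how many starts they have. GENCODE M21 gives Foxp1 31 transcripts over 597384 bases, Foxp2 20 over 540629 and Foxp4 8 over 57513, and the table gives 1 value per gene and genotype, so no start or isoform could be followed on its own. RefSeq promoter windows (GRCm38.p6, 250 bases before to 50 after a start) matched Foxp1 at 3 starts and Foxp4 at 1; none was matched for Foxp2. Each was searched on both strands for TGACAG, the core bound by Meis proteins, TGATTGAC, a composite of Pbx and Meis, TAATTA, a homeodomain core of the kind Dlx proteins bind, and TGTTTAC, a forkhead core. The middle Foxp1 window, chr6:99266466-99266765, held TGACAG (as CTGTCA, its reverse complement, 151 bases before the start) and TAATTA (240 bases before it), which do not overlap. The other Foxp1 windows and the Foxp4 window held none of the 4. Of all 32851 windows, 19.2% held TGACAG, 5.29% TAATTA, 3.65% TGTTTAC and 0.770% TGATTGAC, so a match to the first is common. The middle Foxp1 window was 48.7% G and C, against 60.3% and 75.3% in the other Foxp1 windows and 70.3% in that of Foxp4. The parts ahead of the first annotated exon are shown for the middle Foxp1 window (minus strand, chr6:99266533-99266765) and for Foxp4 (minus strand, chr17:47924646-47924882), the first because it is the 1 window of the 4 with matches and the second because it is the only one of Foxp4, with motif matches in capitals.
Foxp1: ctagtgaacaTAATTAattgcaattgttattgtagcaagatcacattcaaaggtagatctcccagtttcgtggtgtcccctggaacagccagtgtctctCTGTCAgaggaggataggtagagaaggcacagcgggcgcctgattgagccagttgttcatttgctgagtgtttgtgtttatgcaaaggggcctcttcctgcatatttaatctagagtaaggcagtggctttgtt
Foxp4: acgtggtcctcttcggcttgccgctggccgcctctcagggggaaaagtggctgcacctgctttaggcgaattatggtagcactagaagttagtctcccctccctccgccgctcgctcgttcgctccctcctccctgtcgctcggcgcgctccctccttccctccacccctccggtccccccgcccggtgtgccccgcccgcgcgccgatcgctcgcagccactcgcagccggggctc
These letters describe the windows; no binding was measured in these samples.

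The genes with the pair of levels most like that of each member were also listed. Likeness was taken as the distance between genes over log2(mean + 0.1) in the 2 genotypes, among 13027 protein-coding genes with official symbols, which rests on 2 means and is a description. Within a distance of 0.25 there were 2 genes for Foxp1, 22 for Foxp2 and 19 for Foxp4. The nearest to Foxp1 were Plk2, a stress-responsive kinase gene (37.8 in Ctrl, 16.1 in Meis2-CKO, distance 0.09), and Gucy1a3, a subunit of soluble guanylate cyclase (39.4 and 18.9, distance 0.24), followed by the Y-linked Eif2s3y, Rgs2 and Sox8. Among the nearest to Foxp2 were Begain, Sult4a1, Insig2 and Shroom2, and the nearest to Foxp4 were Ly6h (57.0 and 40.2, distance 0.04), Cntnap2, Tspan7, Dnajb5 and Celf5. Since likeness was set by the 2 means, it fixes the fold change of these genes too, and their calls are not counted. The number of genes within 0.25 follows from the same 2 means and is no further result about a member.

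The annotation carried by the table gave Foxp1 46 distinct Gene Ontology terms, Foxp2 28 and Foxp4 17, of which 11 were common to the 3. The share of genes called lower was above the 0.544% of all listed genes in 5 of these terms and below it in 6. It ran from 0.332% in nucleus (16 of 4813 genes) to 1.87% in RNA polymerase II core promoter proximal region sequence-specific DNA binding (5 of 267). Sequence-specific DNA binding had 6 of 357 called lower, protein heterodimerization activity 6 of 411, and negative regulation of transcription from the RNA polymerase II promoter 3 of 576. The terms overlap, and none was tested. Foxp1 is among each of these counts.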

How the data were processed

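RNA of LGE from 4 Ctrl and 4 Meis2-CKO samples was sequenced, and 1 table of 16913 genes was used. Per the submitters' processing notes, the tools were StringTie 1.3.1, HISAT2 2.1.0 and FastQC 0.11.5, and mm10 and GRCm38.p2 are named as builds; no roles are given. The mean expression signal per genotype was averaged by the authors, per the file headers, which name no unit; its sum was 547952 in Ctrl and 543246 in Meis2-CKO. Per the file headers, the authors also deposited a log2 fold change, a p-value and an adjusted p-value, and the adjustment equals Benjamini-Hochberg over all genes. The table also has 8 columns of library values whose names match no sample label; these were not used in any step, so no test on libraries was run.

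Genes were placed by Ensembl ID on GENCODE M21 (GRCm38), which matched 16861 genes. Coding sequences were aligned globally, and words of 31 and 50 bases were compared. Genes were named by a fixed rule: the members, Meis2, in each list the called genes or otherwise up to 3 with the smallest p, the 3 forkhead genes with the highest Ctrl mean, the nearest, overlapping or called genes within 500 kb, and the 5 genes most like each member. Other names were chosen after their values were seen. The members and lists were chosen with earlier results of these data known. Alternatives were pseudocounts of 0.1 and 1, centring, equal sums, other adjustments, a fold change of at least 1.5 and a window of 1000 kb. A planned comparison of proteins was not run, and a few items that the rule names are not reported here. The adjustment and motif search were tested on simulated data. Python 3.11.15, numpy 2.4.6, pandas 2.3.3 and matplotlib 3.10.9 were used.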

Additional observations from a re-analysis of the deposited data

How the results depend on the processing

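The log2 fold changes of Foxp1, Foxp2 and Foxp4 kept their sign under the pseudocounts, centring and equal sums, which leave the deposited p-values as they are and so say nothing of the calls. Foxp1 ranged from -1.32 to -1.27, Foxp2 from -0.61 to -0.58 and Foxp4 from -0.52 to -0.51. Under the other adjustments, which leave the fold changes as they are, each of the 3 stayed on its side of the threshold. The adjusted p of Foxp4 was 0.0565 when adjusted over genes with a mean of at least 1 in either genotype, 0.151 over protein-coding genes and 0.709 by Benjamini-Yekutieli. The counts of called genes for the members and the forkhead family did not move under the 3 other adjustments or the fold-change minimum. Those of the partners, the reported targets and the neighbours did not move either. These last lists held no called gene, and Benjamini-Yekutieli and the fold-change minimum can only remove calls, so neither could have moved their counts. The count of the striatal factors was 6 instead of 7 with a fold change of at least 1.5. No paired analysis was possible because the library columns carry no sample name, and for the same reason leaving out each replicate was not run. Depth is unknown, so how far it limits the calls of Foxp2 and Foxp4 cannot be stated.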
